A study of Mus musculus with 9 samples.

Results

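Chromosome 8 of the mouse was followed across normal and leukemic bone marrow progenitors. The members were all genes that the deposited table places on chromosome 8, with their transcripts summed by gene name, if their mean over the 9 libraries was at least 1 FPKM (fragments per kilobase of transcript and per M, or mega, fragments). Of 856 genes listed on the chromosome 603 met that minimum, out of 16537 genes in all and 10836 at that level. The other 253 stayed below it, and 139 of them were under 0.1 FPKM.

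The study sequenced RNA of sorted cells of the bone marrow of FVB/NJ mice, an inbred strain, in 3 groups of 3 libraries. The control group was hematopoietic progenitor cells, or HPC, from which all mature blood cells derive, of wild-type mice at postnatal day 42. The leukemic progenitors (LP) came from mice of the genotype PML-RAR, which joins the PML protein to a retinoic acid receptor and is the hallmark of acute promyelocytic leukemia. The labels name an early and a median phase of LP. The sources used here do not give their age in days, the promoter that drives the fusion or the markers used for sorting. LP and HPC thus differ in genotype, in stage and possibly in age, and these cannot be told apart. Nothing in the labels ties the 3 libraries of each group to different mice, so p-values measure the spread between libraries, which may be technical.

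When cells gain a copy of a whole chromosome, most of its genes give about proportionally more RNA, while genes under strong regulation can move far from that ratio. Such gains are frequent in leukemia. An extra chromosome 8 is a recurrent finding in human acute promyelocytic leukemia, but human and mouse chromosome 8 have only part of their genes in common. Mouse chromosome 8 holds, among others, the red cell regulator Klf1, the interferon regulatory factor Irf8, the plasma protein haptoglobin (Hp), the neighbouring clotting factor genes F7 and F10, and clusters of metallothioneins and carboxylesterases. No DNA was measured here, so every value below is a level of RNA, and whether the copy number of chromosome 8 differed between the groups was not tested.

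The promoters of 3 genes are printed here, chosen after the data were seen as examples of the kinds of behaviour described below. Whether the letters of a promoter have a part in that behaviour was not tested. Klf1, a transcription factor of red cell precursors, was far below the rest of the chromosome in LP. F7, coagulation factor VII, was far above it. Hmgb2, a DNA-bending chromatin protein that is abundant in dividing cells, moved with the chromosome. The sequences are from RefSeq on GRCm38.p6, on the plus strand, and end at the base before the start of transcription, which for Klf1 is the start in the deposited table, 54 bases before that of RefSeq. Klf1 is at chr8:84901732-84901927, F7 at chr8:13025784-13026033 and Hmgb2 at chr8:57511593-57511842. Capitals mark matches, on either strand, to 5 motifs. GATAA is known from erythroid zinc finger factors, CCAAT from the factor NF-Y, and CACACCC from Klf1 and its relatives. TGTGGT is the core motif of RUNX factors, and TTGCNNAA that of C/EBP factors.
Klf1: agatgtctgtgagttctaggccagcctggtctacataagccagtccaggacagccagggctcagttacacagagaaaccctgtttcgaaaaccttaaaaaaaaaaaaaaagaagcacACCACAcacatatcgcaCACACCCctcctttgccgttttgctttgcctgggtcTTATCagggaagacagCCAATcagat
F7: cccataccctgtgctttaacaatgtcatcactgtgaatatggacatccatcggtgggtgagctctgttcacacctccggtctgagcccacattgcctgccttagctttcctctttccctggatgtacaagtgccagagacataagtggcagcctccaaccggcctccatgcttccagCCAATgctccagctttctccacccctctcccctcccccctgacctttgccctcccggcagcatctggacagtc
Hmgb2: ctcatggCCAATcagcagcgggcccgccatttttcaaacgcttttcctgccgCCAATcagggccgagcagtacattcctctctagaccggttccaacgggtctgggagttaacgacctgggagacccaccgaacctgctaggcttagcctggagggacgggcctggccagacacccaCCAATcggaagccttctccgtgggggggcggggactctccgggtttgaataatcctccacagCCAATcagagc
In Klf1 the match to GATAA began at position -80 from the RefSeq start, on the minus strand, and that to TGTGGT at -133, also on the minus strand. Its CCAAT motif began at -64, and its CACACCC motif began at -116. F7 held 1 match, of the NF-Y motif, which began at -73. Hmgb2 held 4 of the NF-Y motif, which began at -243, -198, -73 and -11. A match of letters is a description and not a bound site. Promoters of 300 bases (250 before the start and 50 after) were given for 388 members. CCAAT was in 41.8% of them, against 40.5% of the 7889 promoters of all genes at 1 FPKM or more, and GATAA in 13.9% against 15.4%. CACACCC was in 8.76% against 8.20%, TGTGGT in 11.3% against 12.5% and TTGCNNAA in 6.19% against 8.33%. AGATAA, a longer GATA motif, was also searched and had no match in Klf1, F7 or Hmgb2. It was in 5.93% against 6.10%. GATAA was in 15.4% of 26 promoters of members over 1 log2 unit below the chromosome's median in both LP groups. It was in 16.2% of 37 over 1 above that median and in 13.3% of 120 within 0.25 of it. For CCAAT these shares were 34.6%, 32.4% and 44.2%.

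The genes of chromosome 8 were higher as a body in both leukemic groups. The median member was at 13.2, 12.9 and 14 FPKM in HPC libraries 1 to 3. It was at 18.6, 19.4 and 19.3 in early LP, and at 19.4, 18.5 and 18.3 in median LP. All 6 LP libraries were thus above all 3 of HPC, while the median of the genes on the other autosomes lay between 12.1 and 13.3 FPKM in every library. Per library, the shift was taken as the median log2 difference of the members from the HPC mean, minus the same for the other autosomes. Each HPC library was set against the mean of the rest of its group. The shift was -0.010, -0.007 and 0.012 in HPC, 0.574, 0.593 and 0.601 in early LP, and 0.575, 0.540 and 0.532 in median LP. The groups' means were 0.589 ± 0.014 (SD, n = 3) for early LP and 0.549 ± 0.023 (SD, n = 3) for median LP. The spread between libraries was small beside the distance from HPC, and the LP groups overlapped each other.

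In the fit across all genes (edgeR, on the deposited counts), the median log2 change of the members from HPC to early LP was 0.55. On the other autosomes it was -0.04, a difference of 0.591 or 1.51-fold. From HPC to median LP the members' median was 0.53 and that of the others -0.04, a difference of 0.567 or 1.48-fold. A ratio of 1.5 is 0.585 on the log2 scale. Between median and early LP the difference was -0.005. Chromosome 8 was chosen because of this shift in the same contrasts, so these values are descriptions and carry no test. Both LP groups were compared with the same HPC libraries, so their values are not independent of each other.

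**Figure D1:**
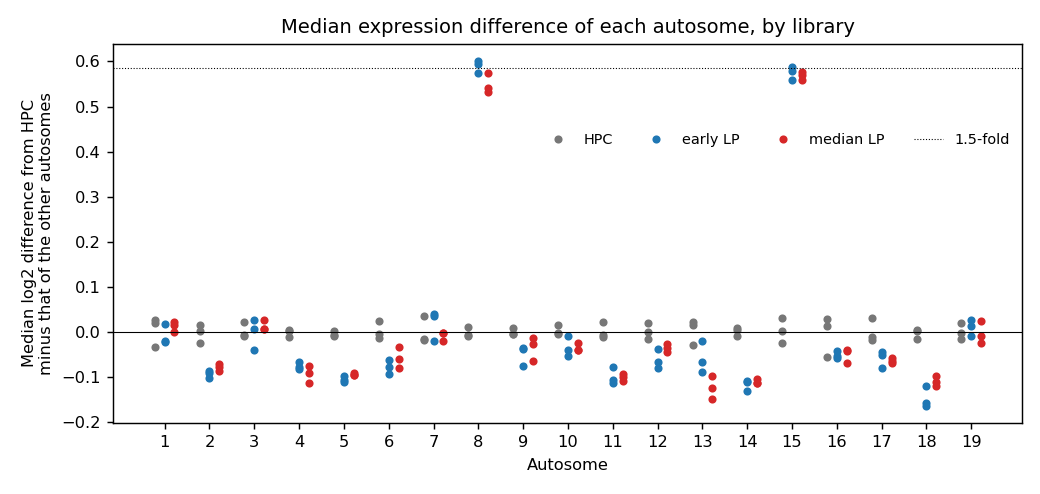
Shift of each of the 19 autosomes in each of the 9 libraries: median log2 difference from the HPC mean minus that of the other autosomes (vertical axis, log2) against the chromosome (horizontal axis), with points for libraries and a dotted line at 1.5-fold. Each HPC library is set against the mean of the rest of its group. Chromosome 8 lies at 0.532 to 0.601 in the 6 LP libraries and chromosome 15 at 0.558 to 0.588, while the LP points of the other autosomes lie between -0.163 and 0.039.

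The shift set chromosome 8 apart from 17 of the other 18 autosomes. In single LP libraries the chromosome 8 median lay between 0.532 and 0.601, and that of those 17 chromosomes between -0.163 (chromosome 18) and 0.039 (chromosome 7). The exception was chromosome 15, whose 431 tested genes had medians of 0.559 in early and 0.513 in median LP. Against the other autosomes without chromosome 15 the early LP difference of chromosome 8 was 0.613. The share of all 856 listed chromosome 8 genes in the summed autosomal FPKM was 4.01 to 4.12% in HPC. It was 5.39 to 5.78% in early LP and 5.64 to 5.78% in median LP. Hp alone is abundant enough to move that share, and without it the ranges were 3.98 to 4.10%, 5.12 to 5.47% and 5.36 to 5.51%.

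The whole distribution was displaced, not only its middle. The difference between chromosome 8 and the other autosomes was 0.626 at the lower quartile and 0.500 at the upper quartile in early LP, and 0.622 and 0.480 in median LP. At the 10th and 90th percentiles it was 0.643 and 0.543 in early LP, and 0.682 and 0.575 in median LP. The log2 change was above 0 for 497 of 602 tested members (82.6%) in early LP, against 47.5% of the other autosomal genes, and for 496 (82.4%) in median LP against 47.4%. The interquartile range of the members' log2 change was 0.770 in early and 0.779 in median LP, and on the other autosomes 0.896 and 0.922. Members did not all move by one ratio: 210 (34.9%) lay within 0.25 of the chromosome's median in early LP. On the other autosomes 31.1% lay as near to their own median.

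**Figure D2:**
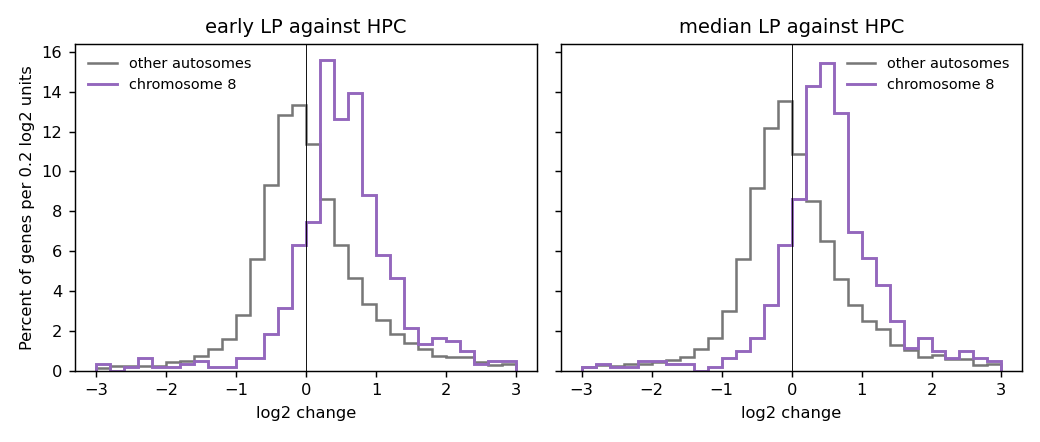
Percent of genes per 0.2 log2 units (vertical axis) by log2 change against HPC (horizontal axis) for chromosome 8 and for the other autosomes, with early LP on the left and median LP on the right. The chromosome 8 outline lies to the right of the other in both panels, and 41 and 42 members lie beyond the limits of -3 and 3 and are not drawn.

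Counted gene by gene with edgeR's quasi-likelihood test (Benjamini-Hochberg adjusted p under 0.05), 431 of 602 members (71.6%) were called higher in early LP than in HPC. Over all 12837 genes tested 35.3% were called higher. Lower in early LP were 61 members (10.1%), against 37.9% of all genes. In median LP 433 members (71.9%, against 36%) were higher and 65 (10.8%, against 37.7%) lower. By scaled counts all early LP libraries were above all HPC libraries for 438 members (72.8%, against 36.3% of all genes), and below for 68 (11.3%, against 38.4%). For median LP these counts were 431 (71.6%, against 36.8%) and 68 (11.3%, against 39%). By FPKM all 6 LP libraries were above all 3 HPC libraries for 385 members (64.0%, against 30.9% of all genes), and below for 67 (11.1%, against 38.5%). The rule used these contrasts, so nothing is read from the shares beyond the description. Of the 603 members only Rprl3, a ribonuclease P RNA-like gene, was too low in counts to be tested, and its FPKM was 0, 0 and 3.36 in HPC, 12.8, 0 and 32.0 in early LP, and 41, 10.5 and 0.423 in median LP.

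The threshold of 1 FPKM cut between similar genes. Just inside it were Crispld2, at 0.671 to 1.30 FPKM over the 9 libraries, and 1810011O10Rik, listed at 0 in HPC and at 0.699 to 2.61 in LP. Just outside were Mylk3, a myosin light chain kinase gene, at 2.36 to 3.72 FPKM in HPC and at most 0.115 in LP, and Gdf15, a stress-induced cytokine, at 0.0495 to 0.0874 in HPC and 0.545 to 2.11 in LP. Of the genes left out, 13 reached 1 FPKM in the mean of an LP group and 9 in that of HPC.

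Along the chromosome the shift ran from end to end. The listed genes span chr8:3150922-129234003 (mm10). In windows of 10 Mb by gene start, all 12 windows with at least 20 members had a positive median in both LP groups. The lowest was 70 to 80 Mb, with 97 members and medians of 0.37 in early and 0.32 in median LP. The highest was 30 to 40 Mb, with 24 members and medians of 1.00 and 0.87. The remaining windows lay between 0.43 and 0.71 in early LP, and the window of 50 to 60 Mb, with only 9 members, was at 1.19 and 1.22. At the start of the chromosome (0 to 10 Mb, 26 members) the medians were 0.66 and 0.58, and at its end (120 to 130 Mb, 71 members) 0.43 and 0.49.

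The windows differed in level as well as in shift. In the gene-dense window of 80 to 90 Mb the median member was at 22.1 FPKM in HPC and at 28.0 in early LP. In that of 10 to 20 Mb it went from 9.22 to 22.5 FPKM. In single LP libraries the lowest median of any window of at least 20 members was 0.244, and in single HPC libraries these medians lay between -0.101 and 0.190. Of 175 such windows on the other autosomes, 7 reached the lowest chromosome 8 window in early LP, and 5 of those were on chromosome 15. In median LP 8 did, 5 of them on chromosome 15. Without chromosome 15 the windows elsewhere ranged from -0.46 to 0.47 in early LP and from -1.12 to 0.38 in median LP.

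**Figure D3:**
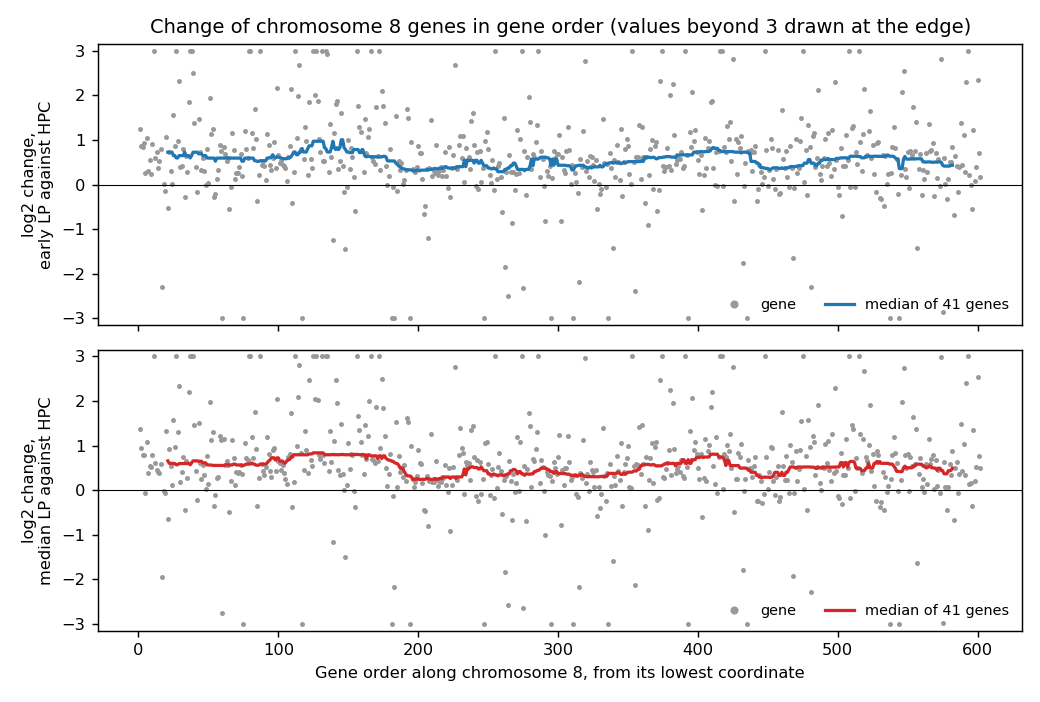
Log2 change against HPC (vertical axis, values beyond 3 drawn at the edge) of each tested chromosome 8 member in gene order from the lowest coordinate (horizontal axis), in early LP (top) and median LP (bottom), with a line for the median of 41 neighbouring genes. The line stays above 0 along the gene order in both panels, and single genes lie far above and far below it.

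The difference was of like size for genes of low and high level, length and GC content. Across tertiles of mean FPKM (limits 7.65 and 22.1) the early LP difference from the other autosomes was 0.571, 0.603 and 0.595. Across tertiles of transcript length (limits 2002 and 3472 bases) it was 0.650, 0.544 and 0.582. Across tertiles of GC content (limits 47.3 and 53.5%) it was 0.595, 0.639 and 0.554. In median LP the 9 values lay between 0.516 and 0.606.

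For 173 members both LP changes were within 0.25 of the chromosome's median, and the 8 most abundant of these are given here. Hmgb2 was at 303, 289 and 357 FPKM in HPC, 489, 485 and 505 in early LP, and 518, 427 and 448 in median LP. All LP libraries were above all HPC libraries, by 0.72 (SE 0.08) and 0.69 (SE 0.08) on the log2 scale. Tfdp1, the partner protein of the E2F factors that drive the cell cycle, was at 149, 137 and 139 FPKM in HPC, 203, 214 and 215 in early LP, and 205, 198 and 203 in median LP. That is a log2 change of 0.60 (SE 0.07) and 0.57 (SE 0.07), again with no overlap. Ndufb7, a subunit of respiratory complex I, was at 163 to 191 FPKM in HPC and 206 to 288 in LP (0.61 and 0.44). Slc25a4, the adenine nucleotide carrier of mitochondria, changed by 0.52 and 0.35. Its call in median LP was lost without HPC 1, HPC 2 or median LP 1, at 0.28 to 0.31. It was also lost with another method, limma on log2(FPKM + 0.1), at 0.31. Kars, the lysyl-tRNA synthetase, changed by 0.42 and 0.35, and Nudt21, a messenger RNA cleavage factor, by 0.31 and 0.28. The median LP call of Nudt21 was lost with limma on log2(FPKM + 0.1), at 0.19. BC056474 changed by 0.80 and 0.58. The RNA helicase gene Ddx39 changed by 0.43 and 0.30 and overlaps another gene in the table, so its fragments can be uncertain.

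Genes that departed by more than 1 log2 unit from the chromosome's median, in both LP groups and in 1 direction, numbered 69 above and 39 below. In early LP alone 71 were above and 46 below (19.4% of members, against 22.1% of the other autosomal genes around their own median), and in median LP 74 and 42 (19.3%, against 22.9%). Of the 12 furthest in each direction, among genes with at least 5 FPKM in the higher group, 12 above and 11 below are described next. They were chosen by these changes, which therefore get no test. The choice also left out predicted genes and required that no LP library overlap an HPC library in FPKM. Lack of overlap in these genes is thus a condition of the choice and not a result.

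Among the genes above the shared shift, F7, at chr8:13026034-13035809, was at 0.295, 0.702 and 0.392 FPKM in HPC, 222, 264 and 260 in early LP, and 294, 256 and 258 in median LP. Its log2 change was 9.10 (SE 0.19) and 9.25 (SE 0.19). Clec3a, a C-type lectin known from cartilage, was at 0, 0.0945 and 0.0337 FPKM in HPC, between 44.1 and 45.6 in early LP and between 42.4 and 48.9 in median LP. It went from near absence to a level above the chromosome's median gene in all 6 LP libraries. Ces1d, a carboxylesterase that cleaves lipid esters, was at 0.544, 0.379 and 0.433 FPKM in HPC, 57.0, 54.2 and 53.4 in early LP, and 66.2, 59.5 and 54.4 in median LP (log2 6.96, SE 0.12, and 7.13, SE 0.12). Hp, which binds free hemoglobin and is also stored in neutrophil granules, was at 160, 124 and 121 FPKM in HPC, 1620, 1974 and 1928 in early LP, and 1713, 1445 and 1581 in median LP. It was the most abundant of these 12 genes, higher by 3.8 (SE 0.13) and 3.58 (SE 0.12) on the log2 scale.

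Ces2c and Cldn23, the latter a gene of the claudin family of tight junction proteins, had no recovered fragment in any HPC library. Ces2c was at 3.97, 4.40 and 3.8 FPKM in early LP and at 4.36, 4.16 and 6.71 in median LP. Against a floor of 3 fragments over the HPC group it was at least 218-fold higher in early and at least 286-fold higher in median LP. Cldn23 was at 5.63, 5.64 and 5.77 FPKM in early LP and at 10.6, 8.94 and 8.37 in median LP, at least 207-fold and at least 353-fold higher. These bounds cover counting error only. The guanine nucleotide exchange factor gene Mcf2l, which ends just before F7, was at 3.07, 2.87 and 2.50 FPKM in HPC, 39.0, 39.2 and 37.1 in early LP, and 40.7, 42.1 and 42.7 in median LP (log2 3.8, SE 0.10, and 3.94, SE 0.10). The lipid phosphatase gene Ppapdc1b went from 21.4 to 25.2 FPKM in HPC to 228 to 257 in LP, with changes of 3.41 and 3.39.

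The other genes of the 12 were lower in level. B3gnt3, which extends sugar chains on proteins, was at 0.0774 to 0.158 FPKM in HPC and 6.44 to 7.70 in LP (5.76 and 5.77). Tex15, known for its role in male germ cells, was at 0.442 to 0.640 FPKM in HPC and 6.78 to 9.42 in LP (4.07 and 3.97). Zdhhc2, a palmitoyltransferase gene, was at 1.96 to 3 in HPC and 24.2 to 27 in LP (3.43 and 3.46). Mfap3l was at 0.535 to 0.552 FPKM in HPC and 5.58 to 7 in LP (3.5 and 3.70). By the rule of choice, no LP library overlapped an HPC library in these genes.

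Among the genes below it, Klf1, at chr8:84901928-84905295, was at 86.0, 93.6 and 107 FPKM in HPC, 0.400, 0.510 and 0.521 in early LP, and 0.327, 0.483 and 0.393 in median LP. Its log2 change was -7.62 (SE 0.14) and -7.83 (SE 0.15). Zfpm1, the GATA1 cofactor also called FOG1, was at 48.2, 53.9 and 54.0 FPKM in HPC, 0.118, 0.404 and 0.360 in early LP, and 0.222, 0.269 and 0.216 in median LP (-7.48, SE 0.19, and -7.81, SE 0.20). Ank1, the ankyrin of the red cell membrane, was at 11.3 to 13.1 FPKM in HPC and 0.0544 to 0.0840 in LP. For these genes all 6 LP libraries were far below all 3 of HPC.

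Irf8, which directs monocyte and dendritic cell development, was at 43.2, 35.4 and 44.0 FPKM in HPC, 1.21, 1.58 and 1.27 in early LP, and 1.52, 1.72 and 1.36 in median LP (-4.88, SE 0.13, and -4.67, SE 0.12). Gpr56, an adhesion receptor of blood stem cells, was at 62.5, 70.6 and 85.7 FPKM in HPC, 5.54, 6.42 and 5.09 in early LP, and 5.80, 5.22 and 5.66 in median LP (-3.63 and -3.67). For both genes the LP groups overlapped each other and, by the rule of choice, neither overlapped HPC. Sh2d4a, an SH2 domain gene, was at 5.63, 5.01 and 4.98 FPKM in HPC and at most 0.0408 in any LP library. Early LP held 1 recovered fragment of it, which puts HPC 1437-fold higher, with an exact 95% counting interval of 258 to 56800.

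Further down, Rbpms, an RNA-binding protein gene, was at 6.40 to 11.1 FPKM in HPC and 0.149 to 0.355 in LP. Rltpr, in a locus shared with another gene, was at 7.17 to 8.77 in HPC and 0.226 to 0.412 in LP. The small GTPase gene Rab4a was at 18.6 to 26.5 FPKM in HPC and 2.30 to 3.13 in LP. Atp7b, the copper pump, was at 7.11 to 7.63 and 0.853 to 1.18 FPKM, and the tropomyosin gene Tpm4 at 4.80 to 7.01 and 1.28 to 2.01. The rule of choice let none of these overlap between HPC and LP.

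**Figure D4:**
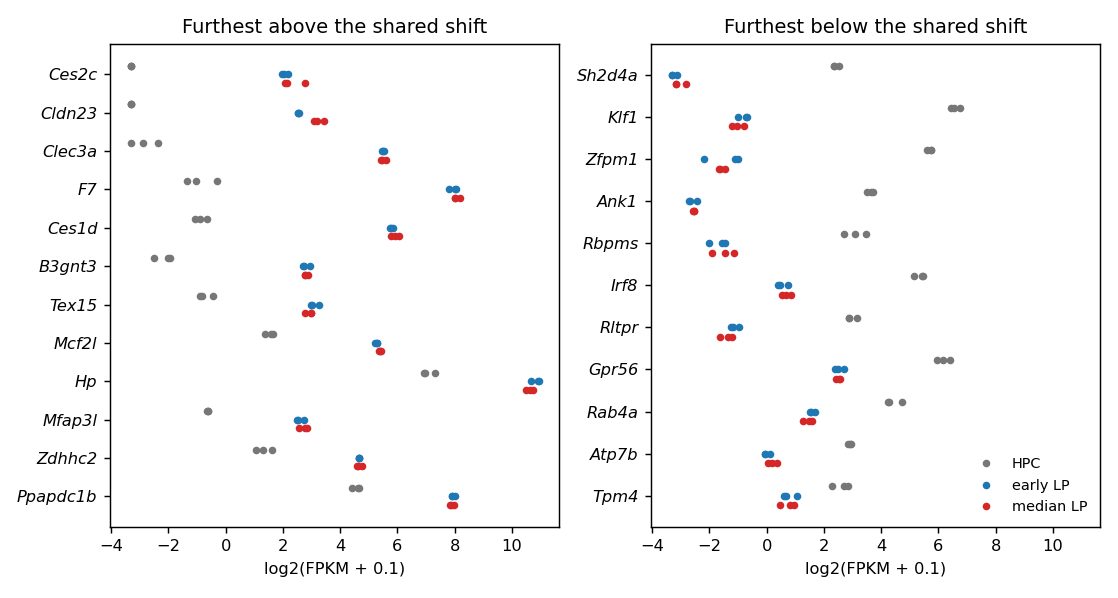
Log2(FPKM + 0.1) in each library (horizontal axis) of the 12 members furthest above (left) and 11 of the 12 furthest below (right) the chromosome's median, with a point per library coloured by group. The rule of choice required the 6 LP libraries of a row to lie on 1 side of the 3 HPC libraries. F7 was at 0.295 to 0.702 FPKM in HPC against 222 to 294 in LP, and Klf1 at 86.0 to 107 against 0.327 to 0.521.

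Markers of other stages of blood cells also differed between the groups. The summed FPKM of 5 red cell precursor markers (Car1, Car2, Gata1, Epor and Tfrc) was 1856 to 2394 in HPC, 38.6 to 39.0 in early LP and 30.9 to 34.4 in median LP. That of 3 platelet markers was 58.3 to 91.1, 1.12 to 1.88 and 0.640 to 1.11. The 4 promyelocyte markers Mpo, Elane, Ctsg and Prtn3 summed to 8378 to 9460 FPKM in HPC, 22920 to 27383 in early LP and 18464 to 21461 in median LP. Of these Prtn3 went the other way in median LP, at 1345, 1178 and 1114 FPKM, below all 3 HPC libraries (1354 to 1582). Of the 4 stem and progenitor markers, which summed to 176 to 217 FPKM in HPC and 37.3 to 42.3 in LP, Kit accounted for most in LP, at 36.7 to 41.2, with Cd34 at 0.373 to 1.26. The platelet marker Gp9 was listed at 0 in 4 of the 6 LP libraries. B cell markers summed to at most 0.963 FPKM and T cell markers to at most 0.230 in any library, and the T cell marker Cd3e was listed at 0 in all 3 HPC libraries. In bulk libraries fewer cells of a type and less RNA per cell cannot be told apart. Whether these differences in cell type have a part in the departures was not tested.

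By role, the 10 red cell and platelet members were mostly lower: 8 of 10 were called lower and 2 higher in both LP groups. Over all members 10.1% were called lower and 71.6% higher in early LP, and 10.8% and 71.9% in median LP. Over all genes tested these shares were 37.9% and 35.3% in early LP, and 37.7% and 36% in median LP. The median change of the 10 was -1.42 in early and -1.61 in median LP, against -0.04 over all genes tested in each. Prdx2, a peroxiredoxin abundant in red cells, was at 410, 420 and 559 FPKM in HPC, 156, 175 and 169 in early LP, and 160, 141 and 136 in median LP. Lyl1, a stem and progenitor transcription factor, was among the 2 higher members at 66.0 to 80.2 FPKM in HPC and 91.2 to 115 in LP, close to the shared shift at 0.55 and 0.46. The other was Hmox1, which degrades heme, at 1.90 to 3.94 FPKM in HPC and 6.57 to 7.79 in LP. Abcb10, a mitochondrial transporter of red cell precursors, was lower by a small margin (-0.33 and -0.44).

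The 17 myeloid and immune members went both ways, 11 higher and 3 lower in early LP and 11 higher and 4 lower in median LP, with medians of 0.93 and 0.88. Called higher were 71.6% of all members and 35.3% of all genes tested in early LP, and 71.9% and 36% in median LP. Called lower were 10.1% and 37.9% in early LP, and 10.8% and 37.7% in median LP. Besides Hp and F7, Cyba, the p22phox subunit of the phagocyte oxidase, rose from 127, 106 and 136 FPKM in HPC to 462, 591 and 490 in early LP and 489, 453 and 451 in median LP. Tnfsf13b, the B cell survival factor BAFF, rose from 1.15 to 1.29 FPKM to 9.21 to 12.4. Cotl1, an actin-binding protein gene, changed by 0.93 and 0.88. The lower members in both groups were Irf8, Gpr56 and Il27ra, a subunit of the interleukin 27 receptor in a shared locus. The immunoproteasome subunit gene Psmb10 was at 53.5 ± 5.42 FPKM in HPC, at 53.3 ± 7.52 in early LP and at 42.9 ± 5.72 in median LP (SD, n = 3), and was called lower in median LP only.

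Of 24 members for DNA replication, repair and the cell cycle, 17 were higher and 3 lower in early LP, and 13 higher and 2 lower in median LP, with medians of 0.36 and 0.24. Of all members 71.6% were called higher and 10.1% lower in early LP, and 71.9% and 10.8% in median LP. Of all genes tested these were 35.3% and 37.9% in early LP, and 36% and 37.7% in median LP. Cdt1, which loads the replicative helicase, was at 61.3, 60.5 and 68.6 FPKM in HPC, 85.0, 109 and 101 in early LP, and 94.6, 86.7 and 86.9 in median LP. Mcm5, a subunit of that helicase, was at 122 ± 7.45 FPKM in HPC, at 149 ± 8.28 in early LP and at 122 ± 3.68 in median LP (SD, n = 3). It was called higher in early LP alone. E2f4, a repressor of the E2F family, was lower at 87.8 to 100 FPKM in HPC and 62.5 to 75.3 in LP.

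Among 20 transcription and chromatin members 12 were higher and none lower in early LP, and 12 higher and 1 lower in median LP, with medians of 0.31 and 0.29. Of all genes tested 35.3% were called higher and 37.9% lower in early LP, and of all members 71.6% and 10.1%. In median LP these shares were 36% and 37.7% of all genes tested, and 71.9% and 10.8% of all members. Cbfb, the partner of the RUNX factors, was at 56.6, 54.7 and 55.9 FPKM in HPC, 89.4, 95.5 and 97.3 in early LP, and 92.5, 87.9 and 89.2 in median LP. Its changes of 0.83 (SE 0.06) and 0.82 (SE 0.06) lay just above the chromosome's median, with no overlap. Irf2bp2 was at 32.1 to 34.5 FPKM in HPC and 67.5 to 88.5 in LP, and Sin3b, a corepressor scaffold, changed by 0.75 and 0.55. Ctcf, the insulator protein, was at 45.1 ± 1.22 FPKM in HPC, at 43.2 ± 0.821 in early LP and at 43.0 ± 1.52 in median LP (SD, n = 3), changes of -0.04 and -0.01 that were not called. The member lower in median LP was Jund, an AP-1 subunit (-0.92, SE 0.26).

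The 15 lysosome and membrane traffic members were all called higher in both LP groups, with medians of 0.90 and 0.79. Over all members 71.6% were called higher in early and 71.9% in median LP, and over all genes tested 35.3% and 36%. Called lower were 10.1% of all members in early and 10.8% in median LP, and 37.9% and 37.7% of all genes tested. Lamp1, the main lysosomal membrane protein, was at 116, 105 and 129 FPKM in HPC, 296, 318 and 327 in early LP, and 350, 303 and 305 in median LP (1.47 and 1.52). Map1lc3b, which coats autophagosomes, changed by 1.29 and 1.20, Vps35, of the retromer, by 0.87 and 0.99, and Atp6v1b2, a subunit of the vacuolar proton pump in a shared locus, by 1.54 and 1.52. Of 15 receptor and signalling members 12 were higher and none lower in both groups, with medians of 0.67 and 0.60. They included the integrin beta 1 chain Itgb1 (0.71 and 0.76) and the amino acid carrier Slc7a5 (0.57 and 0.60). Map2k7, a kinase of the JNK pathway, changed by 0.38 and 0.42. Ednra, an endothelin receptor, went from 0.134 to 0.198 FPKM in HPC to 2.13 to 3.35 in LP. Prkaca, the catalytic subunit of protein kinase A, was at 30.1 ± 1.68, 30.3 ± 1.05 and 27.2 ± 1.73 FPKM (SD, n = 3) in HPC, early and median LP.

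Among 10 stress and folding members 8 were higher and 1 lower in both groups, with medians of 0.63 and 0.66. Called higher were 71.6% of all members and 35.3% of all genes tested in early LP, and 71.9% and 36% in median LP. Called lower were 10.1% and 37.9% in early LP, and 10.8% and 37.7% in median LP. Calr, the calcium-binding chaperone of the endoplasmic reticulum, was at 772, 749 and 720 FPKM in HPC, 1910, 2019 and 2220 in early LP, and 2071, 1790 and 1860 in median LP. Herpud1, induced by endoplasmic reticulum stress, changed by 2.25 and 1.96, and the metallothionein Mt1 by 2.01 and 2.24, from 230 to 312 FPKM to 900 to 1393. Its neighbour Mt2 was at 258 ± 35.8, 338 ± 81.6 and 460 ± 168 FPKM (SD, n = 3) and was called in median LP only, but also in early LP without median LP 3 (0.42). The lower member was Nqo1, a quinone reductase, at 5.30 to 6.60 FPKM in HPC and 1.23 to 2.04 in LP. Of 4 carboxylesterase members Ces1d, Ces2b and Ces2c were higher in both groups. The fourth, Ces2g, was at 88.4, 97.0 and 121 FPKM in HPC, 94.7, 96.6 and 95.5 in early LP, and 93.2, 93.3 and 109 in median LP. Its groups overlapped, with Ces2b and Ces2c in the same gene cluster.

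Of 17 mitochondrial and metabolic members 13 were called higher and 1 lower in early LP, and 10 higher and 1 lower in median LP. Of all members 71.6% were called higher and 10.1% lower in early LP, and 71.9% and 10.8% in median LP. Of all genes tested these were 35.3% and 37.9% in early LP, and 36% and 37.7% in median LP. The medians of the 17 were 0.38 and 0.32, and 8 of them lay within 0.25 of the chromosome's median in early LP. Aprt, which salvages adenine, was the highest of these in change after Mvd, a cholesterol synthesis gene (2.54 and 2.74). Aprt was at 103, 92.2 and 115 FPKM in HPC, 303, 351 and 359 in early LP, and 348, 286 and 286 in median LP. The fatty acid elongation enzyme gene Tecr changed by 0.33 and 0.12, the latter called without HPC 3 (0.26) but not with it. The member lower in both was Lpl, lipoprotein lipase, at 1.5 to 3.11 FPKM in HPC and 0.138 to 0.589 in LP.

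Of 13 members for ribosomes, proteasomes and protein synthesis, 9 were higher and none lower in both groups, with medians of 0.37 and 0.25. Called higher were 71.6% of all members and 35.3% of all genes tested in early LP, and 71.9% and 36% in median LP. Called lower were 10.1% and 37.9% in early LP, and 10.8% and 37.7% in median LP. The splicing protein gene Lsm4 changed by 0.84 and 0.51. Those not called included Mrpl34, of the mitochondrial ribosome, and Rpl13, of the cytosolic ribosome. Rpl13 was at 1981, 2017 and 2669 FPKM in HPC, 2067, 2617 and 2478 in early LP, and 2480, 1970 and 1960 in median LP. Its groups overlapped, and HPC 3 was the highest of its group. Without HPC 3 the edgeR change of Rpl13 in early LP was 0.30 instead of 0.13, and it was then called.

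Both log2 changes lay within 0.25 of 0 for 89 members. Among the most abundant of these were Rpl13 and Cox4i1, a subunit of cytochrome oxidase, which was called higher in early LP at 0.23 (SE 0.10). The call of Cox4i1 was lost without HPC 1, without HPC 2, without any 1 of the early LP libraries and without median LP 3, with changes of 0.18 to 0.25. It was also lost with limma on log2(FPKM + 0.1), at 0.25. Pgls, of the pentose phosphate pathway, and Vdac3, a channel of the outer mitochondrial membrane, were also near 0.

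Many members encode parts of machines whose other parts are encoded elsewhere in the genome. In 9 families, chosen after the data were seen, 23 members were set beside the same family's genes on the other autosomes without chromosome 15. The families were gathered by gene name, so some genes elsewhere may not be parts of the machine, such as Atp6v0c-ps2, Psmc3ip and Cdc20. In early LP all 23 lay above their family's median elsewhere, by 0.181 to 1.06 with a median of 0.575. In median LP 22 of 23 did, with a median of 0.538, and Psmb10 was below by -0.046. The 72 cytosolic ribosomal protein genes elsewhere had a median of -0.53 in early LP and -0.58 in median LP. Rpl13 was above 71 of those 72 in early LP, at 0.13, and above 69 of 72 in median LP, at -0.04. With scaling factors taken without chromosomes 8 and 15, the median of this family's members in median LP changed sign from -0.04 to 0.02. The median of the genes elsewhere stayed negative under the 4 scalings tried.

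The replication genes load and start the DNA helicase. The 13 replication licensing and GINS genes elsewhere had a median of -0.19 in early LP, and the 6 members a median of 0.65. Among them were Gins3 (0.67), Gins4 (0.80), Cdt1 (0.67) and Orc6 (0.23). The 41 subunits of respiratory complexes I and IV elsewhere had a median of -0.20 and the 3 members 0.35. The 15 nucleoporins elsewhere, all below 0, had a median of -0.30, and Nup133 (0.01) and Nup93 (0.33) were above each of them. The vacuolar proton pump acidifies lysosomes, and the 14 genes of this family elsewhere had a median above 0, at 0.48, with Atp6v0d1 at 1.10 and Atp6v1b2 at 1.54. These comparisons use the contrast that chose the chromosome and carry no test.

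**Figure D5:**
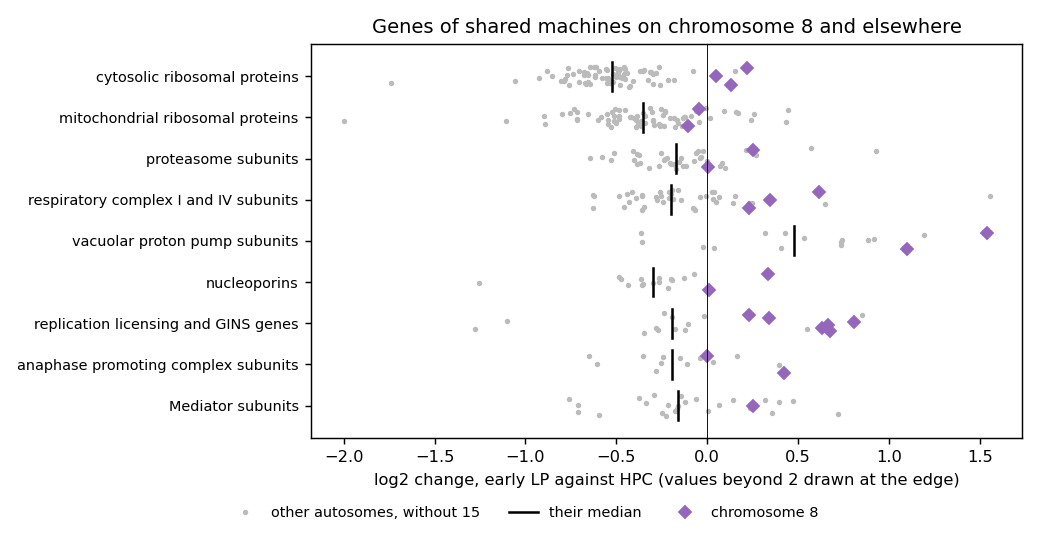
Log2 change from HPC to early LP (horizontal axis, values beyond 2 drawn at the edge) of genes in 9 families: members on chromosome 8 (diamonds), genes on the other autosomes without chromosome 15 (grey points, spread vertically only to be seen apart) and the median of the latter (bar). All 23 diamonds lie to the right of their family's bar.

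Departing genes sometimes lay near each other. Among the 108 that departed in both LP groups, 22 pairs of successive departing genes lay within 100 kb of each other. Other genes may lie between them. Of these pairs 16 departed in the same direction. Of the 108 genes 69 departed above and 39 below. No count for the other autosomes stands beside these pairs, so nothing is read from them about clustering. The longest run was Atp11a, Mcf2l, F7 and F10 within the window of 10 to 20 Mb, all above. The gap between F7 and F10, the gene of coagulation factor X, was 1499 bases. F10 was at 5.66, 4.28 and 4.49 FPKM in HPC, 24.4, 27.4 and 28.6 in early LP, and 43.8, 34.8 and 36.6 in median LP. Tex15, Ppp2cb, a catalytic subunit of protein phosphatase 2A, and Gsr, glutathione reductase, formed another run above. Gsr was at 123, 106 and 102 FPKM in HPC, 654, 681 and 713 in early LP, and 810, 718 and 677 in median LP. Cyba and Mvd lay 656 bases apart, both above, and Klf1 and Prdx2 lay 64353 bases apart, both below. Zfpm1 and Cyba, 87524 bases apart, departed in opposite directions. The sources used here do not say whether strand was counted, so fragments of close neighbours may not be fully separated.

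Between the leukemic phases few members changed. By edgeR's quasi-likelihood test with Benjamini-Hochberg adjustment 7 members were higher in median than in early LP (1.16%, against 1.48% of all genes tested) and 2 were lower (0.332%, against 0.997%). Without adjustment 88 members had a p under 0.05 (14.6%, against 16.5% of all genes tested). Median LP libraries lay above all early LP libraries for 68 members (11.3%, against 12.4%) and below for 84 (14%, against 13.7%). These shares are near those of all genes. The log2 change was above 0 for 287 members (47.7%, against 48.6% of the other autosomal genes). All 9 libraries enter the fit, and without HPC 3 the counts were 14 higher and 13 lower. Leaving out any 1 LP library left 2 to 4 higher and at most 2 lower. No share over all genes stands beside these counts with a library left out, so nothing is read from them about the chromosome.

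Ppp1r3b, which brings a phosphatase to glycogen, was at 1.44, 1.49 and 1.32 FPKM in HPC, 4.75, 4.87 and 4.96 in early LP, and 7.23, 7.24 and 7.23 in median LP. The change from early to median LP was 0.62 on the log2 scale (SE 0.08, edgeR adjusted p = 0.00196), with no overlap. Cyp4f18, a cytochrome P450 that breaks down leukotriene B4, was at 1.54, 2.04 and 2.01 FPKM in early LP and 0.833, 0.723 and 0.739 in median LP, with HPC at 0.448 to 0.895. That is a change of -1.26 (SE 0.24, edgeR adjusted p = 0.0193). Other members called are given in the closing section with the libraries their calls depended on.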

How the data were processed

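The authors deposited 1 table for all 9 libraries, with a value per RefSeq transcript in 2 units: FPKM and estimated counts, per the file headers. The submitters' processing notes name TopHat2 version 2.0.6 and the build mm10. The quantifier, the annotation release and whether strand was used in counting are not stated in the sources at hand. The deposited estimated counts are not whole, and both units carry a scaling of the authors. Low values were whole multiples of 1 step per library, within 0.05 of a whole number for 89.9 to 91.7% of them. Division by the step gave a depth of 20.6 to 28.4 M (mega) fragments, where the deposited counts of a library sum to 21.9 to 25.8 M. The common biological coefficient of variation between libraries was 9.81%.

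The 21388 transcripts were summed by gene name to 16537 genes. Deposited starts count from 0 and were raised by 1. Genes were tested two-sided with the quasi-likelihood method of edgeR 4.0.16 (R 4.3.3) on the rounded estimated counts, scaled by TMM and filtered with filterByExpr by group. It kept 12837 genes in 1 fit of all 9 libraries, with Benjamini-Hochberg adjustment over all of them and calls at 0.05. Log2 changes are from that fit. Each SE was derived from the test, as the absolute log2 change divided by the square root of its F statistic. Shifts per library used log2(FPKM + 0.1), which understates changes of low genes. Alternatives were RLE scaling, TMM without chromosomes 8 and 15, no filter, DESeq2 1.42.0, recovered fragments, limma 3.58.1 on log2(FPKM + 0.1) and log2(FPKM + 1), a replicate block, other sets of members and windows of 20 Mb, and leaving out each library.

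The members, the 10 lists by role and the rule for named genes were chosen with earlier results of these data known. List members that the table places elsewhere were dropped, and those under 1 FPKM are not counted. The rule named the 12 members furthest above and furthest below the chromosome's median and the 8 most abundant at the shared shift. It also named up to 4 of each list and those next to the minimum of 1 FPKM. Of the members called between the phases it named only those with the smallest adjusted p in each direction. The 9 families, the promoters and the motifs were chosen after the data were seen, as were the other genes named by role or as neighbours. Promoters are from RefSeq on GRCm38.p6. GC content was matched for 98.5% of members. A few genes are counted among the members but not reported by name here.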

Additional observations from a re-analysis of the deposited data

Results flagged for a closer look

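Of the 9 members called between the phases 8 are given here. They passed the test of the difference between the leukemic phases itself (edgeR's quasi-likelihood test, Benjamini-Hochberg adjusted over all genes tested). Higher in median than in early LP were Lpl by 1.65 (adjusted p = 0.0271), Cldn23 by 0.72 (0.0113), Ppp1r3b by 0.62 (0.00196), F10 by 0.54 (0.0215), Pdp2 by 0.46 (0.0493) and 4933403G14Rik by 0.46 (0.0314) on the log2 scale. Lower were Cyp4f18 by -1.26 (0.0193) and Gins2 by -0.33 (0.0497, in a locus shared with another gene). In each the 3 median LP libraries lay on 1 side of the 3 early LP libraries. Pdp2, which activates pyruvate dehydrogenase, was outside the rule for named genes and is given because it was called; it was at 4.56 to 5.15 FPKM in early and 6.23 to 7.10 in median LP. Lpl was at 0.138 to 0.177 FPKM in early and 0.406 to 0.589 in median LP, under 1.5 to 3.11 in HPC. Gins2, of the replicative helicase, was at 52.6 to 61.7 FPKM in early and 44.5 to 46.9 in median LP, above 36.1 to 42.3 in HPC.

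The calls of Lpl and 4933403G14Rik were lost when any 1 of the 6 LP libraries was left out, with adjusted p of 0.051 to 0.134 and 0.084 to 0.126. The call of Gins2 was lost without any 1 LP library and without HPC 1 (0.0505 to 0.188). F10 lost its call without any 1 LP library but median LP 2 (0.058 to 0.095), Cyp4f18 without any but early LP 1 (0.059 to 0.095), and Cldn23 without early LP 2, early LP 3, median LP 1 or median LP 2 (0.052 to 0.067). Pdp2 lost it without any 1 LP library and without HPC 1 (0.055 to 0.218), while Ppp1r3b kept its call without any 1 library. With limma on log2(FPKM + 0.1) the calls of F10, Gins2, Pdp2 and 4933403G14Rik were lost (adjusted p 0.065 to 0.111). With a replicate block in edgeR those of Cyp4f18, Gins2, Pdp2 and 4933403G14Rik were lost (0.051 to 0.092). All 8 kept their direction.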

How the results depend on the processing

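The chromosome 8 shift against HPC stayed positive under every alternative run. With limma on log2(FPKM + 1) it was 0.547 in early and 0.517 in median LP. In early LP it was 0.613 with single-transcript genes and, in an alternative added after the data were seen, 0.613 against the other autosomes without chromosome 15. Leaving out 1 library gave 0.583 to 0.608 in early LP, 0.548 to 0.569 in median LP and -0.014 to 0.008 between the phases. Members called lower fell to 38 in early and 40 in median LP with members of at least 5 FPKM, a smaller set. No share over all genes at that level stands beside these counts. The highest window in early LP was 0.757 with windows of 20 Mb and 0.725 with members of at least 5 FPKM; in median LP the highest was 0.651 with members of at least 5 FPKM and the lowest 0.417 with windows of 20 Mb.

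For the counts of members called in this paragraph no share over all genes under the same setting is given. Nothing is thus read from them about chromosome 8 in particular. Between the phases DESeq2 called 12 members higher and 7 lower. With members of at least 5 FPKM 2 were higher and 1 lower. The count lower was 1 with RLE scaling, with TMM without chromosomes 8 and 15, with recovered fragments and without shared loci. Leaving out 1 library gave 2 to 14 higher and 0 to 13 lower, the largest without HPC 3, and the cause was not tested. A replicate block left 6 higher and 0 lower. The replicate numbers share only a number: deviations of same-numbered libraries correlated at -0.213 to 0.115, so the block is not read as pairing. Each named gene was compared by its status, called or not called, under alternatives and with libraries left out. Against HPC 814 values kept their status in early and 816 in median LP. There 4 and 4 gained a call, and 7 and 5 lost one. Between the phases 773 kept their status, a count that includes genes not called to begin with. A further 4 gained a call and 48 lost one, and all 48 were of members called between the phases. The 4 gained between the phases were BC056474, Lsm4 and Mcm5 without HPC 3 and Herpud1 without median LP 3, and Crispld2 gained one in median LP without median LP 3 (-0.59). None changed direction while called. Depth limits genes with few fragments, such as Sh2d4a in LP.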

Other observations

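Other members lay above the shared shift without being named by the rule, and were chosen here after their values were seen. Slc7a2, a carrier of arginine and other cationic amino acids, was at 0.147 to 0.319 FPKM in HPC and 2.32 to 3.31 in LP, with log2 changes of 3.69 and 3.77. The nearby gene Mtus1, of a microtubule-associated protein, was at 10.8 to 13.7 FPKM in HPC and 89.0 to 96.8 in LP (2.92 and 3.03). The adjacent genes Cmtm3 and Cmtm4, whose proteins span the membrane and handle other surface proteins, lay 521 bases apart and changed together, by 1.84 and 1.87 in early LP and by 1.87 and 2.20 in median LP. Neil3, a DNA glycosylase of dividing cells, was at 17.9 ± 0.462 FPKM in HPC, at 42.3 ± 3.82 in early LP and at 42.8 ± 3.16 in median LP (SD, n = 3). The insulin receptor gene Insr and the gene of its substrate Irs2, the latter in a locus shared with another gene, changed by 1.24 and 0.97 in early LP and by 1.38 and 1.31 in median LP. No LP library overlapped an HPC library for any of these genes.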
